A study of Mus musculus with 2 samples.

Results

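HIRA ChIP-seq of the embryonic mouse heart gave 522 peaks that lay inside introns in sequence mostly not marked as repeated. They make up 7.88% of the list of 6624 HIRA peaks. A peak was included when its midpoint lay in the body of a GENCODE M21 gene, in no exon and over 1 kb from any transcript start, when under 50% of its bases were soft-masked (lower-case bases of the mm10 assembly, which mark repeats), and when it held none of the listed simple repeats. Those are an exact 8-base run of 4 GA or 4 CA dinucleotides on either strand, and 24 or more bases of exact period 3 to 6. Of the 2400 peaks with an intronic midpoint, 1024 were under the soft-masked line and 522 of these, 21.8% of the intronic peaks, remained without the simple repeats. The chromatin came from wild type (WT) CD1 hearts at E12.5, 30 of them pooled from 2 plugged females, cross-linked with EGS and formaldehyde and precipitated with the HIRA antibody WC15. Input chromatin of the same pool was the control, so both groups share genotype, strain, age and cross-linking and differ only in the precipitation. There was 1 ChIP library and 1 input library and the list holds positions without heights. The depth is therefore unknown, the error between hearts or precipitations could not be estimated, and the intervals given below (95%; Wilson for shares, Newcombe for differences of shares, exact Poisson for densities, order statistics for medians) cover counting error only. A pool of whole hearts mixes myocardial, endocardial, epicardial and blood cells, and which of them carried a given peak cannot be told apart.

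HIRA is the core of a chaperone complex with UBN1, CABIN1 and ASF1A. The complex deposits H3.3, a variant of histone H3, outside DNA replication, at promoters, gene bodies and regulatory elements of active genes. Introns make up most of the body of a mammalian gene. They hold enhancers, short binding sites for transcription factors, and repeated DNA of several kinds, among them minisatellites, in which a unit longer than that of a microsatellite is repeated head to tail, and stray copies of genes from elsewhere. Lower-case marking does not cover every kind of repeat, so the intronic peaks were also read letter by letter.

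Examples of 3 kinds of sequence among the 522 peaks are shown here before their values. All positions are mm10, counted from 1, and every sequence is read on the plus strand. The first kind is the tandem array. The peak in intron 8 of Med23, a gene for a subunit of the Mediator complex, is one of the 3 widest peaks of at most 300 bases and is shown whole, with 1 repeat unit of 14 bases in capitals.
Med23, chr10:24879125-24879422: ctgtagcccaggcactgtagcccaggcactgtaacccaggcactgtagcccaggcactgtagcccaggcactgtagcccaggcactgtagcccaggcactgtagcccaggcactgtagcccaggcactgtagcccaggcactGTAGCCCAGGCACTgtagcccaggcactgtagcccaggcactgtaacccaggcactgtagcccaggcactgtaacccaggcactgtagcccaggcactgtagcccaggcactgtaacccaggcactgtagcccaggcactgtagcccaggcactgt
The 5 widest peaks of all are tandem arrays too, and 1 unit from the middle of each is shown in capitals, since the unit is what the peak repeats. Syne1, which codes for a giant protein of the nuclear envelope, holds the widest.
Syne1 unit, chr10:5082362-5082410: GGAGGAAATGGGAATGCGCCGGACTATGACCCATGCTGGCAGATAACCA
Ankrd44 unit, chr1:54821159-54821186: AGGAGAAGAAGGTACAATGTATCTGTAA
Cul5 unit, chr9:53649952-53649988: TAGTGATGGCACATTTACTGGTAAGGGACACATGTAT
Gtf2a1l unit, chr17:88709970-88710056: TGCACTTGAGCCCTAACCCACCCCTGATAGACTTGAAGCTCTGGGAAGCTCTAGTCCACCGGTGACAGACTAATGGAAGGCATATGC
Arid1b unit, chr17:5158909-5158954: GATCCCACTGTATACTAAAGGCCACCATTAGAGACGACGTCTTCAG
The 5 units ran from 28 to 87 bases, each of a different length.

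The second kind is a sequence with close copies on other chromosomes. The peaks in Camk1d, a calcium/calmodulin-dependent kinase gene, Sspn, which codes for sarcospan of the dystrophin complex, and Gphn, which codes for gephyrin, are shown because each shares a long stretch with a peak in an unrelated gene. Capitals mark the longest stretch shared letter for letter, on either strand, with the peak in Dnah7b (39 bases), in Arhgap21 (229 bases) and in Fgfr2 (53 bases), in that order. Sspn and Gphn were chosen after their values were seen.
Camk1d, chr2:5379061-5379358: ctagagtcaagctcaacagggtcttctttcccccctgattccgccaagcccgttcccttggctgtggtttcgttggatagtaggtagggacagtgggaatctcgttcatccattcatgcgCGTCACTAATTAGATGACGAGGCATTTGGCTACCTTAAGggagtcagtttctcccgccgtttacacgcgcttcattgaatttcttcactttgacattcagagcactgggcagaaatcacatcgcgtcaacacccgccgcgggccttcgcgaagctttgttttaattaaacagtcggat
Sspn, chr6:145932771-145933012: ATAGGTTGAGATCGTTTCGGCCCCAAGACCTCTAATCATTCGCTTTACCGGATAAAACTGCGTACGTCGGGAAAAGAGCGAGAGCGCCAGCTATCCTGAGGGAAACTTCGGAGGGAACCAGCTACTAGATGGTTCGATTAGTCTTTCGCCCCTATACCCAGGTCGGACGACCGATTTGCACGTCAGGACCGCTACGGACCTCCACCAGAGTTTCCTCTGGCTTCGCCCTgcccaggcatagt
Gphn, chr12:78350893-78351154: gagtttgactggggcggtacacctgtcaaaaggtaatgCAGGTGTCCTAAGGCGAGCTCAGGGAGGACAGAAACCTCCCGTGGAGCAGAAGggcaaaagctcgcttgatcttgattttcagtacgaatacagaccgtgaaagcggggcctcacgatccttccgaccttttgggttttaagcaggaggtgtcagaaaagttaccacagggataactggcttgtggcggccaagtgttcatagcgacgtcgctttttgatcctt
The letters are known as those of the RNA of the large ribosomal subunit. This naming rests on general knowledge and not a measurement, since no complete copy of that gene was in the reference used here, and the annotation gives these places no such name.

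The third kind, the largest, is sequence found once in the genome. Slc9a3r1, the gene for the scaffold protein NHERF1, is one of the loci that the study examined further, and its peak is shown with a run of a single base in capitals. The peak of Hdac5, a class II histone deacetylase gene, is shown with 2 such runs. It is one of the 3 widest peaks of at most 300 bases and holds 2 32-base words with a second copy, so it is not counted as single-copy.
Slc9a3r1, chr11:115173266-115173426: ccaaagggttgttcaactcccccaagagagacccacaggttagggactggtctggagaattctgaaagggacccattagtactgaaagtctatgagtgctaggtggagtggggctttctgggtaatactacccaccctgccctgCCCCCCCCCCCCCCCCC
Hdac5, chr11:102216414-102216709: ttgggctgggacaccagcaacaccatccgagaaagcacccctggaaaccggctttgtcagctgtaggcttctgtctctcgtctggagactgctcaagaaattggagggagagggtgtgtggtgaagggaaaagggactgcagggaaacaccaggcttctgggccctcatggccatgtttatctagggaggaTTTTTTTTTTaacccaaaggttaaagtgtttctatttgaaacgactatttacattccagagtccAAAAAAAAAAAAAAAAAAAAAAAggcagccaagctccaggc
The run of 17 C in Slc9a3r1 is the end of the peak, and the longer run of Hdac5, of 23 A, lies near its end.

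Peaks in cardiac genes are shown with the short words of cardiac transcription factors in capitals. The word searched for NKX2-5 was TNAAGTG and that for the GATA factors was AGATAA. The word of the TBX factors was AGGTGT and that of the TEAD factors was GGAATG. For HAND and other E-box factors the word was CANCTG, for the MEIS factors it was TGACAG, and MEF2 and SRF were searched by their longer words, always on both strands. Abca4, which codes for an ABC transporter and is a further locus the study examined, holds 1 such word. The others shown are 5 of the peaks in the cardiac lists described below that hold words for 2 or more kinds of factor.
Abca4, chr3:122142953-122143117: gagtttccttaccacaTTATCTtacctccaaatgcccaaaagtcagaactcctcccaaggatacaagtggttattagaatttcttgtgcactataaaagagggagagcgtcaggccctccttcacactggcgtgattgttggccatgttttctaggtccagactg
Tgfb2, chr1:186699933-186700103: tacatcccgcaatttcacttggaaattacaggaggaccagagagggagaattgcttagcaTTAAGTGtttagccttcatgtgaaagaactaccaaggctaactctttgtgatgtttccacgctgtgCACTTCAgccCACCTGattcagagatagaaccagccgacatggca
Gja5, chr3:97062997-97063164: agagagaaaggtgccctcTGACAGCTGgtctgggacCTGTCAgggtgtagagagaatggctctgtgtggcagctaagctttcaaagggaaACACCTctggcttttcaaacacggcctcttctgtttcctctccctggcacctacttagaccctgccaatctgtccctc
Kcnq1, chr7:143112777-143112972: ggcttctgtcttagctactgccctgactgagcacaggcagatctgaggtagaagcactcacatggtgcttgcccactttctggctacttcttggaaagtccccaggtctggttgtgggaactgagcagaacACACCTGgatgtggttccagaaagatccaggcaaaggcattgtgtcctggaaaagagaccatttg
Myl4, chr11:104578209-104578394: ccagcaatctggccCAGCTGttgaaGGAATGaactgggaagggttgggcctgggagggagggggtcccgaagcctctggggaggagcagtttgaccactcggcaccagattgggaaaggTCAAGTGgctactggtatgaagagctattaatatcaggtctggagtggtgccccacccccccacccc
Ttn, chr2:76808035-76808212: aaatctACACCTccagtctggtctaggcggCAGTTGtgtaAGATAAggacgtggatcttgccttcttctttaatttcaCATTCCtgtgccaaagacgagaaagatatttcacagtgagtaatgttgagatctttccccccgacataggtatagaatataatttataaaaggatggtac
In Abca4 the word is AGATAA on the minus strand. In Gja5 a MEIS word overlaps an E-box word, and in Kcnq1 a TBX word overlaps an E-box word, so these stand as a single capital run. The midpoint of the Ttn peak was 7 bases from an exon and the peak ran into that exon. Its words are therefore not to be read as intronic ones. A match describes letters and is not a binding site.

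The label "mostly unique" was checked by cutting each peak into overlapping words of 32 bases and counting each word, on both strands, in all 21 placed chromosomes. A word found again anywhere was held by 213 of 522 peaks (40.8%, 36.7 to 45.1), and in 81 peaks every word was repeated. Among windows of 185 bases that tile all introns and pass the same rule (3831538 windows, of which every 50th was read), the share was 8.99%. Among the 382 intergenic peaks chosen by the same sequence rule it was 41.1%, and the shares without a repeated word differed by 0.295 points (-6.14 to 6.78). Among the 761 intronic peaks over the soft-masked line that held none of the listed simple repeats it was 98.6%. Peaks were read whole and windows at 185 bases, and a wider region holds more words. Among the 522 peaks the share was 22.7% (16.4 to 30.6) under 170 bases and 30.1% (23.5 to 37.7) at 170 to 190. At 300 to 400 bases it was 80.5%. So 263 of the intronic peaks (50.4%) had no soft-masked base, and yet the absence of soft-masking was not the absence of repetition. A word of the mitochondrial genome was held by 0 of 522, which allows a share of up to 0.731%, 3 held a word of an unplaced scaffold, and 14 held a word of a spliced transcript outside its own exons.

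Just inside the 50% line stood the peaks in Arhgap20 (48.4% soft-masked), Shb (48.8%) and Eif4g3 (49.1%). Just outside it stood Mroh8 (50.7%), Evl (50.9%) and Wdpcp (51.2%). Of those inside, Shb alone was a tandem array.

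Tandem arrays accounted for the greater part of the repetition. The 185 bases centred on each peak's midpoint were compared with themselves shifted by 7 to 90 bases. The shift used was the smallest that matched nearly as well as the best one. A peak was called an array when at least 80% of these bases matched at that shift, a line chosen after the values were seen. There were 123 arrays among the 522 peaks (23.6%, 20.1 to 27.4). Of the intronic windows 0.178% were arrays, so the share in peaks was 132 times that in windows. In intergenic peaks the share was 16.5%, lower than in intronic peaks by 7.07 points (1.76 to 12.2), and in those 761 soft-masked intronic peaks it was 5.12%. Of the 123 arrays 110 had no soft-masked base.

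**Figure D1:**
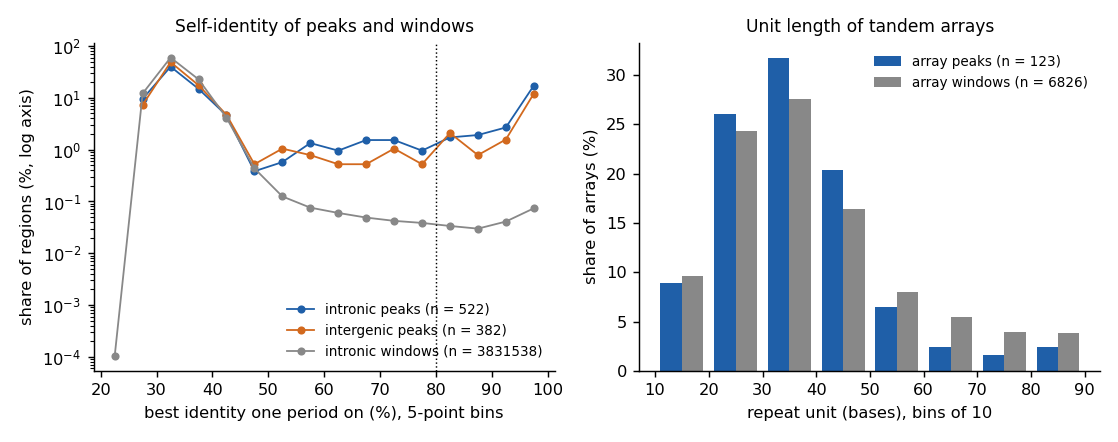
Left, share of regions (log axis) by the identity of a region's central 185 bases with themselves one repeat unit on, for intronic peaks, intergenic peaks and intronic windows, with the array line at 80% dotted; right, share of arrays by unit length. Above 40% identity windows fall to 0.0299% at 85 to 90% and stand at 0.0738% in the 95 to 100% bin, where intronic and intergenic peaks stand at 17.2% and 12%, and the unit lengths of peaks and windows follow each other.

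The arrays were long and well kept. Their unit ran from 11 to 87 bases with a median of 34 (31 to 37), and their median identity from unit to unit was 97.8% (96.8 to 98.6). At the median the array was 533 bases long and held 15.7 units, with the longest reaching 2341 bases. In 32 of the 123 no base differed from unit to unit within the central 185 bases, and 90 were at 95% or more. An array was called from the bases centred on the peak's midpoint and then followed outward. Peaks at the edge of an array could therefore hardly enter, and the placement of peaks along arrays was not tested. Array sequence covered the whole peak in 89 cases, the array was the longer of the pair in 105, and the peak's midpoint stood at a median of 47.5% (45.4 to 49.3) of the way along it. Array peaks were wider than the others, with a median of 258 bases (231 to 284) against 179 (177 to 182) for single-copy peaks. Among peaks under 170 bases 7.58% (4.17 to 13.4) were arrays, and among those of 300 to 400 bases 70.7% (55.5 to 82.4) were.

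The widest peak, chr10:5081598-5083173 in Syne1, spanned 1576 bases over an array of 26.9 units of 49 bases at 97.1% identity. Ankrd44 followed with 855 bases and a 28-base unit without a mismatch in its central 185 bases. All identities to a repeat unit are those of the central 185 bases. Cul5, a scaffold subunit of ubiquitin ligases, had 818 bases and a 37-base unit. Gtf2a1l, a germ-cell relative of a general transcription factor gene, had 652 bases and an 87-base unit, and Arid1b, which codes for a BAF chromatin remodeller subunit, had 651 bases and a 46-base unit. In Med23, shown whole above, the array ran for 501 bases and 35.8 units of 14 bases, and the peak held 298 of them. The 3 peaks of Cep128, a centrosomal protein gene named for its 3 peaks after they were seen, lay in 1 array of 1316 bases with a 30-base unit, so they are not independent places.

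Copies of an array stayed near it. In 122 of 123 array peaks the repeated words were found only within 10 kb. Such words match many units of 1 locus and no other locus. How the authors treated reads with several alignments is not given in the sources used here, and its part in these peaks was not tested.

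Among arrays, the better kept and the longer ones were overlapped by a peak more often. Of intronic windows with a self-identity under 40%, 0.0175% (0.0162 to 0.0189) were overlapped by an intronic peak of this kind. The share rose to 1.44% (1.04 to 1.99) at 80 to 90%, 2.3% (1.66 to 3.16) at 90 to 95%, and 6.3% (5.46 to 7.26) at 95 to 100% identity. A window counted when any of its bases was overlapped, so a wide peak counted in several windows. Array peaks were the wider ones, windows are not independent, and these intervals do not allow for either. Joined into loci, the array windows formed 3887 places, and 126 of them (3.24%, 2.73 to 3.85) met one of the 522 peaks. The share was 1.39% for a locus of 1 window and 10.2% (6.64 to 15.4) for one of 5 to 9 windows. A longer locus is also a larger target, which this share does not remove.

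**Figure D2:**
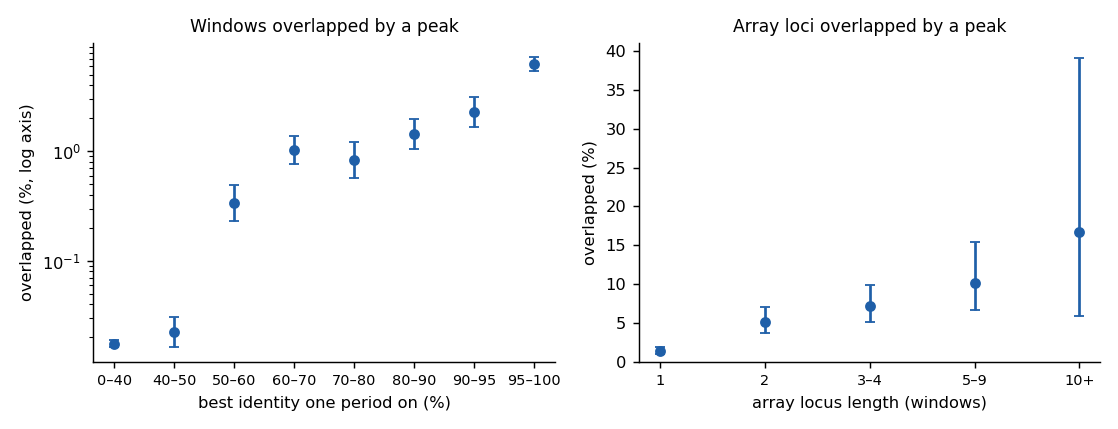
Left, share of intronic windows (log axis) overlapped by one of the 522 peaks against their self-identity one unit on; right, share of array loci overlapped against their length in windows of 185 bases; bars are 95% Wilson intervals. The share climbs from 0.0175% to 6.3% with identity and from 1.39% to 16.7% with length, the last from 18 loci only.

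Of the 90 peaks with repeated words and no array, 40 had copies only within 10 kb, 45 only further away and 5 both. The group that Camk1d, Sspn and Gphn stand for numbered 11 peaks. Grouped by shared 32-base words, they fell into 3 sets, the largest with 7 peaks (Arhgap21, Sspn, Tmtc2, Gm19951, Jarid2, D130009I18Rik and Cmss1), the others with Dnah7b and Camk1d, and with Fgfr2 and Gphn. Aligned with each other, each matched a partner at 94.2 to 99.6% identity over 91 to 329 bases. They held between 8 and 54 CpG each, although the median intronic peak had 0.922 CpG per 100 bases, and at most 9.38% of their bases were soft-masked. The Cmss1 peak, 544 bases long, had 54 CpG and copies at 19 distant places, of which 11 lay in peaks of the list. The group was picked out after the copies had been counted. The part of the copies in these peaks was not tested.

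The 309 single-copy peaks (59.2% of 522, 54.9 to 63.3) had a median width of 179 bases and a median GC of 47.2% (46.1 to 48.4) against 42.2% in windows. They differed from windows in what lay at their ends. A run of 10 or more of a single base was centred within 20 bases inside an edge in 68 of 309 (22.0%, 17.7 to 27.0), and in 0.909% (0.841 to 0.982) of single-copy windows. Further in, 2 of 309 peaks (0.647%, 0.178 to 2.33) held such a run, against 2.63% of windows. Of the 72 runs inside these peaks, 69 (95.8%, 88.5 to 98.6) were near an edge, where windows had 25.4% of theirs. The runs were of A or T in 84.7%, about as in windows (82.5%), and their median length was 13 bases. A run on both sides was seen in 0 of 309, which allows a share of up to 1.23%. This measure was set up after the values were seen.

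The position was narrow. Between 0 and 10 bases inside the edge there were 19.1 runs per 100 single-copy peaks against 0.515 per 100 windows. Between 10 and 20 bases there were 3.24, and between 20 and 50 bases there were none. In the first 10 bases outside the edge there were 2.27. Soft-masked bases followed. They were found within 20 bases inside an edge in 49.5% of single-copy peaks and within 20 bases of the midpoint in 19.1%, against 39% and 26.7% of windows. Intergenic single-copy peaks had the same feature more often, with an edge run in 32.9% (27.1 to 39.3). The intronic share was lower by 10.9 points (interval of intronic minus intergenic -18.6 to -3.25). In array peaks such a run was seen in 0 of 123, which allows up to 3.03%. The rule on soft-masking and short-period repeats was applied to windows and peaks alike.

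**Figure D3:**
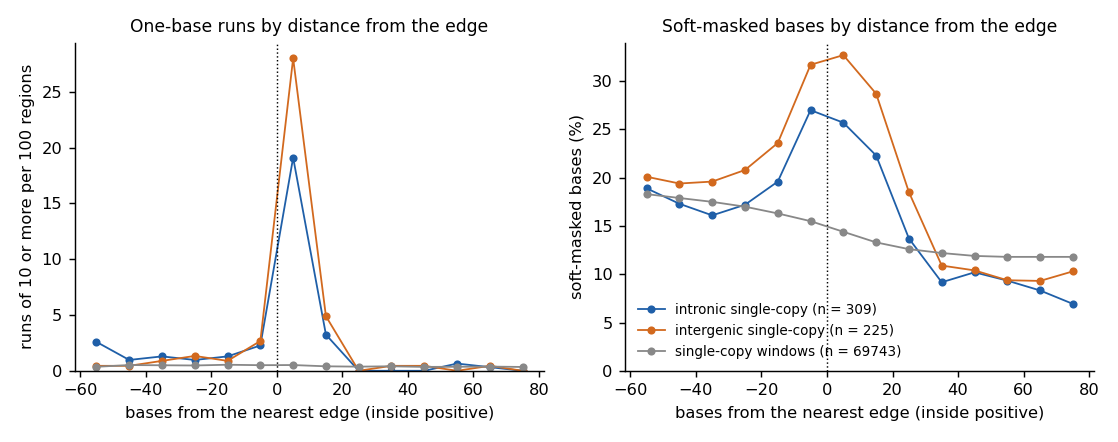
Runs of 10 or more of a single base per 100 regions (left) and share of soft-masked bases (right) in 10-base bins by distance from the nearest edge, inside positive, for single-copy intronic peaks, single-copy intergenic peaks and single-copy windows. Runs peak at 19.1 and 28.0 per 100 in the first 10 bases inside both kinds of peak, while windows stay between 0.344 and 0.542.

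The simple repeats that the rule removed from inside the peaks were not gathered beside them. One of the listed repeats lay within 200 bases of 112 of 522 peaks (21.5%, 18.1 to 25.2) and of 21% of windows. GA runs lay there in 4.02% of peaks (2.65 to 6.07) and 6.45% of windows, and CA runs in 13% and 12.8%.

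Peaks were denser in GC-rich intronic sequence, where GC is that of the peak or the 185-base window and not of the whole intron. The median GC was 48.7% (47.8 to 50.0), with single peaks from 20.7 to 75.4%. There were 13.6 peaks per 100000 windows overall. Under 35% GC there were 6.01 (4.37 to 8.07), at 50 to 55% 24.2 (19.9 to 29.2), and at 65% or more 722 (435 to 1.13e+03), the last from 19 peaks in 2630 windows. Both kinds of peak took part. Single-copy peaks went from 4.1 to 60.7 (34.0 to 100) per 100000 between under 35% and 60 to 65%, and array peaks from 0.41 to 81.0 (49.5 to 125). Among windows that are arrays, however, GC and overlap with a peak did not rise together, with shares overlapped of 5.74% under 40% GC, 3.51% at 40 to 50%, 2.86% at 50 to 60% and 4.95% above. CpG followed another order than GC. Of array peaks 50.4% had no CpG, and of single-copy peaks 20.1%, a difference of 30.3 points (interval of single-copy minus array -39.9 to -20.4), although array peaks had the higher GC, with a median of 53.5%. Windows had the same order, with no CpG in 54.6% of those that are arrays and 28.1% of single-copy ones.

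**Figure D4:**
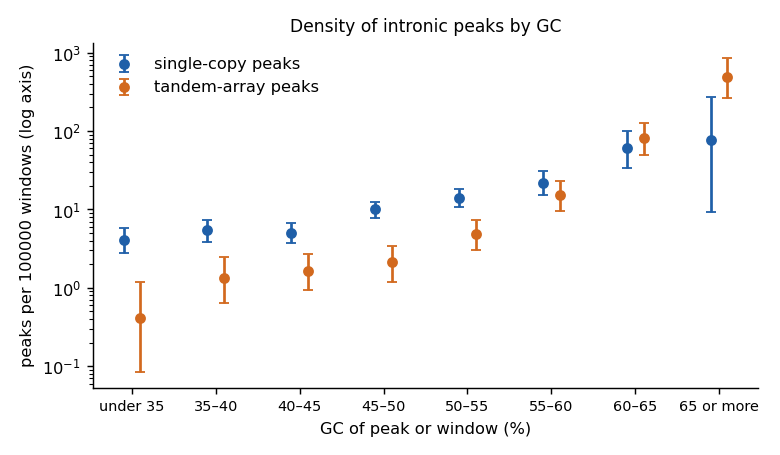
Single-copy and tandem-array intronic peaks per 100000 eligible intronic windows (log axis) in bins of GC percent, with exact 95% Poisson intervals. Both rise with GC, single-copy peaks from 4.1 to 76.0 and array peaks from 0.41 to 494.

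Within genes the peaks as a whole lay much as the windows did, with small departures. Of 457 peaks in an intron of the transcript with the greatest summed exon length, 138 (30.2%, 26.2 to 34.6) were in the first intron, where windows had 28.2% (difference 1.96 points, -2.07 to 6.32). The kinds of peak were not alike in this. The share was 36.1% (30.6 to 42.0) for single-copy peaks and 19.8% (13.5 to 28.2) for arrays, a difference of 16.2 points (6.22 to 24.9), and 24.7% for peaks with repeated words and no array. Windows had the same order, with 28.1% for single-copy windows and 24.6% for those that are arrays. The latter lay inside the interval of array peaks, but the former lay below that of single-copy peaks. Single-copy peaks exceeded all eligible windows by 7.82 points (2.32 to 13.7). Density was 16.7 per 100000 windows (13.7 to 20.2) at 2 to 5 kb from a transcript start and 7.72 (5.71 to 10.2) beyond 50 kb. Peaks within 1 kb of an exon made up 17.5% (14.3 to 21.3), against 21.7% of windows (peaks minus windows -4.19 points, -7.4 to -0.434). The median distance to the nearest exon was 2654 bases (1668 to 4035) for arrays and 6152 (4808 to 8571) for single-copy peaks. In windows it was 3322 bases for arrays and 5191 for single-copy ones, so this order was not particular to the peaks.

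The peaks fell in 475 genes, 430 of them protein-coding, which is 1.96% of the 21938 protein-coding genes of the annotation. In 437 of these genes there was 1 peak, in 32 there were 2 and in 4 there were 3. Genes that held a peak were long, with a median of 466 eligible windows against 53 for protein-coding genes with any. Shb, which codes for an adaptor protein of receptor tyrosine kinases, had 4 peaks in 452 windows, 8.85 per 1000. Of these 3 were single-copy, at 61.9, 53 and 52.7% GC, and the remaining one was an array with a 44-base unit at 86.5% identity. Fgfr2, a fibroblast growth factor receptor gene, had 5 in an annotated body of 2960900 bases with 10331 windows, 0.484 per 1000. Its 5 peaks were of different kinds. Those starting at 130669455, 130786879 and 130977860 on chromosome 7 were single-copy, the one at 130834423 belonged to the dispersed group, and the one at 131179548 was an array with a 28-base unit at 95.5% identity.

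Cardiac genes were looked at as lists. Counts are given per 1000 eligible windows, since a long gene can hold more peaks, and all genes together had 0.136 (0.125 to 0.148). The 5 cardiac lists, 184 genes in all, held 16 peaks, or 0.169 (0.0964 to 0.274), a ratio of 1.24 to all genes, and 13 of the 16 were single-copy. The sarcomere list stood at 0.318 (0.117 to 0.691; 6 peaks), ion channels and calcium handling at 0.232 (0.0851 to 0.505; 6 peaks), cardiac transcription factors at 0.189 (0.0229 to 0.682; 2 peaks), cushion signalling at 0.0624 (0.00158 to 0.348; 1 peak) and adhesion at 0.0426 (0.00108 to 0.237; 1 peak). Each of these intervals holds the value of all genes. The genes of HIRA, its partners and H3.3 held 0 peaks in 4280 windows (upper limit 0.862). A list of long genes whose products act mainly in neurons held 12 peaks at 0.0626 (0.0323 to 0.109), below all genes. The endothelial and epicardial list held 1, in Kdr, and the blood list held 1, in Sptb, both named after their values were seen. These lists were not tested against each other.

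**Figure D5:**
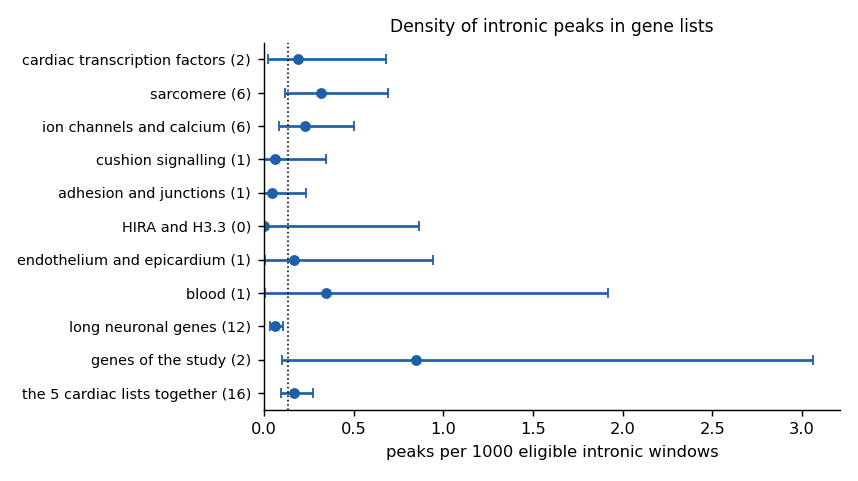
Intronic peaks per 1000 eligible windows for each gene list, with the number of peaks in brackets, exact 95% Poisson intervals as bars and the value of all genes (0.136) dotted. The interval of every list but the long neuronal genes reaches the dotted line. Both peaks in the genes of the study are at loci that the study itself reports as enriched for HIRA, so that value is not independent.

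Of the 46 genes of the sarcomere list 6 held a peak, 1 each, and all 6 peaks were single-copy. Ttn codes for titin, the molecular spring of the sarcomere. Its peak at chr2:76808035-76808212 (39.9% GC) had its midpoint in intron 221 of 346, a short intron of 402 bases, 7 bases from an exon, so that the peak ran into the exon. Myl4, the gene for the atrial essential light chain of myosin, had a peak of 186 bases at 59.1% GC, 1021 bases from a start and outside the longest transcript. Ldb3, which codes for the Z-disc protein Cypher, had one of 290 bases in intron 7 of 13, with a run of 10. Synpo2, a Z-disc actin-binding protein gene, had one in a first intron of 114632 bases, with a run of 11. Dmd, the dystrophin gene, had one in its first intron of 187480 bases, 36672 bases from the nearest start. Fhod3, a formin gene of the sarcomere, had one in intron 3 of 26, 87694 bases from a start.

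Of the 40 genes of the ion channel list, 5 had a single-copy peak and Ryr2 an array. Ryr2 codes for the calcium release channel of the sarcoplasmic reticulum. Its peak lay in intron 38 of 104 over an array of 646 bases with a 15-base unit and, at 80.6%, the lowest identity among the 123 arrays. Hcn4, the pacemaker channel gene, and Kcnh2, the gene for the hERG potassium channel, had the GC-richest of these peaks (61.7 and 63.7%), both in intron 1. Kcnh2's peak of 251 bases held 15 CpG, 317 bases from an exon. Kcnq1, a potassium channel gene of repolarisation, had its peak in intron 1 at 51.5% GC, and Gja5, the gene for connexin 40 of atria and conduction tissue, in intron 3 of 3 at 53.6%. Camk2d, the main cardiac CaM kinase II gene, had the widest of these at 319 bases, with 1 MEF2 and 1 TEAD word.

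Among the other cardiac genes, Meis1, a homeobox gene, had a single-copy peak of 168 bases in intron 9 of 9 with 1 E-box word. Prrx1, a homeobox gene of mesenchyme, had one in intron 1 with a run of 15 and a repeated word. Tgfb2, which codes for a growth factor that acts in the endocardial cushions, had one in intron 1 with a repeated word, 2 NKX2-5 words and 1 E-box word, 4315 bases from a start. Jup, which codes for plakoglobin of the desmosome, had one in intron 1, 1015 bases from a start and so just past the 1 kb line. Of the study's own loci, Slc9a3r1 had its peak of 161 bases in intron 1 of 5, 10005 bases from a start, and Abca4 its peak of 165 bases in intron 31 of 49, 9584 bases from a start. Both were single-copy, at 57.1 and 45.5% GC. Of the 15 genes in the list of the study, these 2 held such a peak, or 0.847 per 1000 windows (0.103 to 3.06) against 0.136 for all genes. Of all protein-coding genes 1.96% held one. The study reports both loci as enriched for HIRA in WT hearts, so this count is not independent of its own HIRA data and gives no support.

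Words for cardiac factors were no more common in the peaks than 1.5 times their share in windows. Of 18 motifs, 3 (16.7%) were held by peaks at least 1.5 times as often as by windows, and none of these is a cardiac word. They were GGGCGG of SP and KLF factors (4.41% of peaks against 1.68% of windows), CCGGAAG of ETS factors (1.15% against 0.507%) and GTCTAGAC of SMAD factors, the last with 2 peaks. With windows weighted to the GC of the peaks, the first 2 fell to ratios of 0.811 and 1.27 and SMAD stayed at 2.16. The E-box word CANCTG stood in 147 peaks (28.2%, 24.5 to 32.2) and in 36.2% of windows, the NKX2-5 word in 43 (8.24%, 6.17 to 10.9) against 11.6%, the GATA word in 48 (9.2%, 7.01 to 12) against 13.1%, and the TBX word in 33 (6.32%, 4.54 to 8.75) against 9.62%. TEAD (10.7% against 10.4%) and MEIS (13.4% against 13.5%) stood level with windows. With windows weighted to GC the shares in windows were 42.3% for the E-box word, 9.67% for NKX2-5, 9.23% for GATA and 10.6% for TBX. In array peaks the words were rarer, with the E-box word in 13% (8.17 to 20.1) and the GATA word in 1 of 123. In single-copy peaks the E-box word stood at 34.3% (29.2 to 39.8), GATA at 13.9% (10.5 to 18.2), NKX2-5 at 10.0% (7.16 to 13.9), MEIS at 18.1% (14.2 to 22.8), TEAD at 14.6% (11.1 to 18.9) and TBX at 6.8% (4.49 to 10.2). Windows weighted to the GC of single-copy peaks had 41.4%, 10.1%, 10.3%, 14.6%, 10.7% and 10.7%, in that order. The intervals of the E-box and TBX words lay below these shares and those of GATA and TEAD just above. Those of NKX2-5 and MEIS held them.

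All 6-base words were then counted without a choice of motifs. Of 1527 words of 6 bases, 19 (1.24%) were held by peaks at least 1.5 times as often as by windows, all with 4 or more G or C. The leading ones were CCGAGG (27 peaks, ratio 2.27), CGGGGA (23, 2.17) and AGCGAG (21, 2.06). With windows weighted to GC, 1 word (0.0655%) was over the line. In intergenic peaks, which did not choose the words, 6 of the 19 were over it and the ratios ran from 0.686 to 2.58. At the other end stood AT-rich words such as CAATTA, in 10 peaks where 46.9 were expected from windows (ratio 0.213).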

How the data were processed

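HIRA ChIP and input chromatin of E12.5 hearts were sequenced. According to the methods, the authors aligned reads to mm10 with Bowtie2 and called peaks with MACS in Strand NGS. Per the file headers the p-value cutoff was 0.001, the fragment length 200 and the enrichment limits 5 and 50. The methods state a stricter cutoff, and it was not settled which applied. The deposited file holds chromosome, start and end of each peak. No read counts, heights or p-values were used here, and a fit across features could not be made.

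Peaks were classed with GENCODE M21 and the GRCm38.p6 assembly by Python 3.11.15 with numpy 2.4.6, numba 0.67.0 and scipy 1.17.1, and aligned to each other with blastn 2.17.0. The background was every window of 185 bases, the median peak width, that passed the same rule (709 Mb). Windows were counted, not drawn at random. GC weighting used bins of 2 points. The counting functions were tested on simulated sequence. A 6-base word counted from an expected 10 peaks. The members and lists were chosen with earlier results of these data known. Genes were named when they stood in a cardiac, HIRA or study list, held 4 or more peaks, held 1 of the 5 widest peaks, or stood beside the soft-masked line. Any other name was chosen after its values were seen. Sequences shown were those of study genes, the 3 widest peaks of at most 300 bases and cardiac genes with words for 2 or more factors, with the units, Sspn and Gphn added after values were seen. Alternatives are given in the closing section.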

Additional observations from a re-analysis of the deposited data

How the results depend on the processing

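The numbers of peaks and genes, the first-intron share, median GC, the share without a repeated word and the density in the cardiac lists were recomputed with the soft-masked line at 25% and 75%, RefSeq genes, every base intronic, 5 kb from a start, protein-coding genes, wider peaks, peaks within 1 kb merged, peaks without repeated words, further repeats left out, and autosomes. Motifs and 6-base words were recomputed only with wider peaks, peaks without repeated words and windows weighted to GC. Leaving out arrays, other identity lines for the array share and other run settings for the edge runs were chosen after seeing the data. The ratio of the cardiac lists to all genes stayed inside its interval throughout, from 0.967 (5 kb from a start) to 1.63 (no repeated word). With 5 kb from a start the first-intron share was 25.9%. With wider peaks there were 265 peaks in 251 genes, a median GC of 50.3% and 45.7% without a repeated word. With no repeated word there were 309 peaks in 292 genes, 36.1% in the first intron, a median GC of 47.2% and, by construction, 100% without a repeated word. With further repeats left out the median GC was 50.3%. With arrays left out it was 47.6%, and 77.4% had no repeated word. Motifs over the line went from 3 to 1 with windows weighted to GC, and 6-base words from 19 to 1, or to 91 in peaks without a repeated word (15 with windows weighted to GC). Arrays made up 19.9% of peaks at an identity line of 90% and 17.2% at 95%. Edge runs of 12 or more bases stood in 15.2% of single-copy peaks and 0.439% of windows.

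No paired analysis was possible because there was 1 ChIP library and 1 input library. Without replicates or heights, a peak's strength and its spread between hearts are unknown. Reads were not analysed here, so mappability and depth in arrays and copied sequence were not tested.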

Other observations

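Density differed between chromosomes, from 5.87 peaks per 100000 windows on X (2.68 to 11.1; 9 peaks) to 22.5 on chromosome 17 (15.3 to 31.9; 31 peaks, 12 of them arrays), leaving aside Y with 1 peak. The arrays on chromosome 17 were the most of any chromosome, and X had none. By intron length, density was 9.3 per 100000 windows (5.96 to 13.8) in introns of up to 2 kb, 17.8 (14.7 to 21.3) in introns of 20 to 50 kb and 9.97 (7.77 to 12.6) in introns over 100 kb.

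The peaks were mostly far apart. Of 522, 17 (3.26%) lay within 1 kb of another of them, and 14 of these were arrays. Within 100 kb of any peak of the list lay 232 (44.4%), and the median distance to another intronic peak of this kind was 1115336 bases.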
